A study of Mus musculus with 16 samples.

Results

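Laminins are the 3-chain proteins from which basement membranes are built, and integrins are the 2-chain receptors with which cells hold on to them. The genes described here are the 37 rows, of 23235 in the deposited table, whose symbols name a laminin chain (Lama, Lamb or Lamc with a number) or an integrin subunit (Itga or Itgb with a number or a letter). Of the 37 genes, 11 encode laminin chains, 18 encode integrin α subunits and 8 encode integrin β subunits. They were followed through skin of the mouse at embryonic day 14.5, which flow sorting (FACS) divided into 8 fractions of cells, with 2 libraries per fraction and 16 in all.

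The labels give only short names for the fractions, read here as hair placode (Pc), epidermis outside the placode (Epi), dermal condensate (DC), dermal fibroblast (Fb), dermal condensate mixed with Schwann cells (DCSch), Schwann cell (Sch), melanocyte (Mc) and cells negative for the sorting markers (Neg). No genotype, strain or treatment is given for any fraction, and all share tissue and age. Which surface markers served for the sort is not given in the sources used here. Integrins are frequent sorting antigens, so the level of an integrin that served for a gate would be no finding. Whether the 2 replicates of a fraction came from separate litters is not stated either, so a p-value here weighs a difference against the spread between these samples alone, which may be technical.

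A laminin trimer holds an α, a β and a γ chain, and its number names the chains in that order. The α chain carries the main sites that cells bind, and the β and γ chains complete the coiled stem and link the trimer to nidogen and other laminins. In skin, laminins with the α3 and α5 chains lie beneath the keratinocytes, which hold them through the integrins α6β4 (the receptor of hemidesmosomes) and α3β1, while laminin-211 and laminin-411 are known from the basement membranes of muscle, nerve and vessels. Integrin β1 joins many α subunits and serves receptors for laminin, collagen and fibronectin.

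Placode, fibroblast, dermal condensate, Schwann cell and melanocyte markers were each highest in the fraction of that name, and keratinocyte markers in Pc and Epi. The summed FPKM (fragments scaled to transcript length and library size) of 7 keratinocyte genes was 3786 to 4916 in the Pc and Epi libraries, against 39.2 to 239 in the libraries of every other fraction but Mc. Those 7 genes also reached 661 and 461 FPKM in the Mc libraries, beside 6469 and 4885 for 6 melanocyte genes. In Neg, all 7 endothelial genes and all 7 skeletal muscle genes reached 1 FPKM, as did all 8 macrophage and leukocyte genes, so Neg is a mixture. Low FPKM values in the replicate 2 libraries fall on steps of single fragments, which give an estimate of their depth. At that depth 1 FPKM on a transcript of 5 kilobases stands for 32.3 (Sch) to 122 (Mc) fragments. The replicate 1 libraries showed no such steps, and their depth is unknown.

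Of the 37 genes, 33 reached a mean of 1 FPKM in some fraction, 24 reached 10 and 6 reached 100. The same 33 passed the filter for testing (at least 1 FPKM in at least 2 libraries). The 4 that did not are Itga2b of platelets and Itgad, Itgae and Itgax of leukocytes, whose highest fraction means were 0.684, 0.00679, 0.726 and 0.243 FPKM.

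Upstream sequence was given for 23 of the 37 genes. It is shown for 4 of them, chosen after their values were seen because their levels differ most plainly in kind: Lama5 of the epithelium, Lama2 and Itga1 of the dermis, and Itgb1 of every fraction. Each is the 250 bases before the gene's start in RefSeq on build GRCm38.p6, the release behind mm10, read on the gene's own strand from 5′ to 3′. Lama5 comes from chr2:180225860-180226109 (minus strand), Lama2 from chr10:27616943-27617192 (minus strand), Itga1 from chr13:115101965-115102214 (minus strand) and Itgb1 from chr8:128685404-128685653 (plus strand). No annotated exon overlaps these 4 windows. Capitals mark GGGCGG, the GC box, and CACCTG, an E-box form, searched on both strands.
Lama5: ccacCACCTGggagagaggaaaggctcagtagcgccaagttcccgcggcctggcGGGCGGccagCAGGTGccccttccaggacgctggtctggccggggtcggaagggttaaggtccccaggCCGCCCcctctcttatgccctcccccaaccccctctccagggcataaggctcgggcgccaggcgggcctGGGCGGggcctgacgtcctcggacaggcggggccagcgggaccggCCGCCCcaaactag
Lama2: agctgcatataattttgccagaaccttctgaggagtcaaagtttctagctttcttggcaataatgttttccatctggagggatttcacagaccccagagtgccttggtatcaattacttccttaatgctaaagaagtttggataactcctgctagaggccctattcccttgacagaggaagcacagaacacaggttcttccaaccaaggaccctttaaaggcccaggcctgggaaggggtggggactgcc
Itga1: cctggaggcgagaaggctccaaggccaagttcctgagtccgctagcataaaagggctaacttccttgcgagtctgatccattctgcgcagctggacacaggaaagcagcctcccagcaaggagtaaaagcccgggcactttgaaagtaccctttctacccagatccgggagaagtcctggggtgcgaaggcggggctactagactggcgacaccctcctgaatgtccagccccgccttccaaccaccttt
Itgb1: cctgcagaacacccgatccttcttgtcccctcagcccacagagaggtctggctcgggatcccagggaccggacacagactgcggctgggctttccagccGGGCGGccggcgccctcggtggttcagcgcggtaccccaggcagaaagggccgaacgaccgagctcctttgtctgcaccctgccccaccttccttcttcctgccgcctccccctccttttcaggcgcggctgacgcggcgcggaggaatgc
The Lama5 window holds GGGCGG 4 times and CACCTG 2 times, the Itgb1 window holds GGGCGG 1 time, and the other windows hold neither. GGGCGG occurs in 32.7% and CACCTG in 17.2% of all 32851 promoter windows of this length. The G and C content was 72.4% for Lama5, 68.0% for Itgb1, 57.6% for Itga1 and 47.2% for Lama2. These matches describe letters in a window, not binding.

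The α3 and β3 chains were almost confined to the 2 epithelial fractions. Lama3 measured 30.7 and 28.4 FPKM in Pc, 24.2 and 22.4 in Epi, 0.964 and 0.820 in DC, 0.499 and 0.358 in Fb, 0.610 and 0.482 in DCSch, 1.72 and 0.633 in Sch, 2.29 and 1.68 in Mc, and 0.642 and 1.14 in Neg. Lamb3 measured 12.5 and 7.03 FPKM in Pc, 6.87 and 5.44 in Epi, 0.201 and 0.0254 in DC, 0.0750 and 0.0325 in Fb, 0.0360 and 0.0310 in DCSch, 0.430 and 0 in Sch, 0.600 and 0.374 in Mc, and 0.0437 and 0.209 in Neg. These α3 and β3 chains belong to the anchor of hemidesmosomes, and for each the 4 Pc and Epi libraries lay above the other 12. Outside the epithelium the largest value of each was that of Mc replicate 1 and the next that of Sch replicate 1. Both fractions held keratinocyte marker RNA, at 661 and 461 FPKM in Mc and at 239 and 41.2 FPKM in Sch. Their part in these low values was not tested.

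Lama5, the α chain of laminin-511 and laminin-521, shared that pattern with the addition of Neg. Lama5 measured 29.4 and 15.0 FPKM in Pc, 20.2 and 13.0 in Epi, 0.395 and 0.219 in DC, 0.818 and 0.212 in Fb, 0.428 and 0.245 in DCSch, 1.08 and 0.0782 in Sch, 1.94 and 1.14 in Mc, and 11.0 and 4.95 in Neg. Both Neg libraries lay between the epithelium and everything else, beside the endothelial markers named above (398 and 284 FPKM in Neg, at most 22.7 in any other library). Vessels are a known site of laminin α5. The part of the endothelial RNA in the Neg value was not tested.

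The α chains of the dermis and nerve were Lama2 and Lama4, and they differed in where they peaked. Lama2 measured 0.565 and 0.551 FPKM in Pc, 0.473 and 0.785 in Epi, 124 and 172 in DC, 21.6 and 26.0 in Fb, 46.4 and 61.9 in DCSch, 38.5 and 43.8 in Sch, 2.46 and 1.54 in Mc, and 16.6 and 18.4 in Neg. The α2 chain, which when lost causes a muscular dystrophy, was highest in DC and second in DCSch, and stayed under 3 FPKM in Pc, Epi and Mc. Lama4 measured 3.31 and 3.11 FPKM in Pc, 2.68 and 2.71 in Epi, 15.8 and 17.3 in DC, 87.8 and 91.9 in Fb, 59.2 and 60.7 in DCSch, 155 and 156 in Sch, 31.8 and 30.6 in Mc, and 65.0 and 57.7 in Neg. The α4 chain, known from vessels and peripheral nerve, was highest in Sch and next in Fb, with DC far below both. DC and Fb, the 2 dermal fractions, carried opposite mixtures. Lama2 made up 85.8% of the laminin α chain FPKM in DC and 19.9% in Fb, and Lama4 9.75% and 75.4%. Shares of this kind do not depend on how libraries were scaled. In Pc and Epi the leading chains were Lama3 (52.1% and 52.2%) and Lama5 (37.5% and 36.5%), and in Sch and Mc the leading chain was Lama4 (78.0% and 82.9%).

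Lama1 measured 2.30 and 2.00 FPKM in Pc, 2.05 and 1.37 in Epi, 6.47 and 6.01 in DC, 5.16 and 3.88 in Fb, 7.35 and 7.03 in DCSch, 1.27 and 0.939 in Sch, 0.900 and 1.01 in Mc, and 0.567 and 0.727 in Neg. This chain, of the laminin-111 of the early embryo, never reached 10 FPKM, and its DC, Fb and DCSch libraries lay above all others.

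Among the other β and γ chains, Lamb1 and Lamc1 had substantial levels in every fraction. Lamb1 measured 38.4 and 36.1 FPKM in Pc, 31.1 and 27.7 in Epi, 74.8 and 60.4 in DC, 68.1 and 63.9 in Fb, 70.0 and 65.8 in DCSch, 136 and 112 in Sch, 17.2 and 13.5 in Mc, and 68.3 and 55.5 in Neg. Lamc1 measured 45.4 and 41.8 FPKM in Pc, 35.2 and 28.6 in Epi, 151 and 121 in DC, 109 and 95.3 in Fb, 113 and 107 in DCSch, 160.4 and 138 in Sch, 42.9 and 37.3 in Mc, and 98.4 and 74.1 in Neg. Lamb1 and Lamc1 complete most trimers, and for both genes the libraries of Pc, Epi and Mc lay below those of the other fractions. Lamb2 measured 10.2 and 3.76 FPKM in Pc, 10.4 and 8.70 in Epi, 32.8 and 12.2 in DC, 39.6 and 12.0 in Fb, 19.7 and 9.29 in DCSch, 10.8 and 4.31 in Sch, 11.3 and 9.43 in Mc, and 9.63 and 4.11 in Neg. For Lamb2, the β chain of synapses and vessels, the DC and Fb libraries overlapped each other, and their lowest value (12.0) was just above the highest of Pc, Epi, Sch, Mc and Neg (11.3). Lamc3 measured 0.0551 and 0.0238 FPKM in Pc, 0.0110 and 0.0490 in Epi, 23.9 and 12.8 in DC, 1.07 and 0.524 in Fb, 5.29 and 3.84 in DCSch, 0.263 and 0.280 in Sch, 0.163 and 0.0543 in Mc, and 0.188 and 0.301 in Neg. The γ3 chain had its DC libraries above those of DCSch, and both above every other library. Summed over the 11 chains, laminin FPKM was highest in Sch (481 ± 36.2, SD, n = 2) and DC (417 ± 19.7) and lowest in Epi (134 ± 18.9) and Mc (105 ± 11.2). The plot of laminin levels by fraction shows these patterns for each chain.

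**Figure D1:**
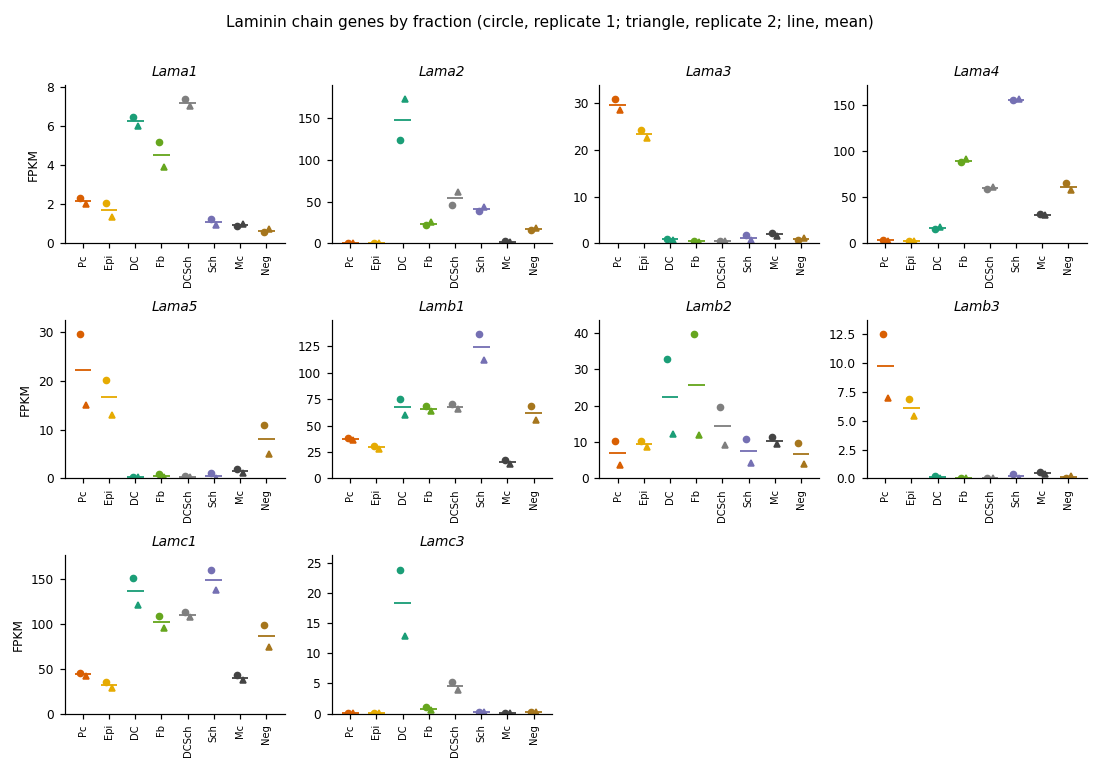
FPKM of 10 laminin chain genes (vertical axes, linear, starting at 0 and scaled for each gene) in the 8 fractions (horizontal axes). Circles are replicate 1, triangles replicate 2 and lines the mean of the 2: Lama3 and Lamb3 stand up only in Pc and Epi, Lama2 and Lamc3 peak in DC, and Lama4 peaks in Sch with 156 FPKM.

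The laminin receptors of keratinocytes were highest in the epithelial fractions too. Itga3 measured 35.8 and 26.4 FPKM in Pc, 26.2 and 17.5 in Epi, 0.295 and 0.295 in DC, 0.525 and 0.242 in Fb, 0.807 and 0.205 in DCSch, 2.25 and 0.722 in Sch, 2.79 and 1.76 in Mc, and 2.34 and 1.21 in Neg. Itgb4 measured 49.4 and 30.1 FPKM in Pc, 40.6 and 24.8 in Epi, 0.655 and 0.388 in DC, 1.15 and 0.280 in Fb, 2.58 and 1.44 in DCSch, 9.13 and 4.05 in Sch, 3.88 and 2.21 in Mc, and 1.04 and 0.851 in Neg. Itga3 encodes the α subunit of α3β1 and Itgb4 the β subunit that joins α6, and for both the Pc and Epi libraries lay above the other 12. Outside the epithelium Itgb4 was highest in Sch, a known site of α6β4. Replicate 1 had the higher Itgb4 in all 8 fractions, Sch among them. Itga6 measured 49.2 and 62.8 FPKM in Pc, 34.4 and 34.3 in Epi, 37.7 and 42.6 in DC, 17.1 and 28.1 in Fb, 75.9 and 91.7 in DCSch, 152 and 195 in Sch, 19.7 and 21.8 in Mc, and 47.3 and 50.6 in Neg. Itga6, which pairs with β4 or β1, was present throughout and highest in Sch, then DCSch. Itga7 measured 0.0163 and 0.0714 FPKM in Pc, 0.161 and 0.0442 in Epi, 2.00 and 1.31 in DC, 1.28 and 1.05 in Fb, 1.23 and 1.31 in DCSch, 3.11 and 1.80 in Sch, 0.101 and 0.0408 in Mc, and 13.8 and 8.05 in Neg. Itga7, the laminin receptor subunit of muscle, was highest in Neg, beside 7 skeletal muscle genes that summed to 2773 and 2464 FPKM there and to at most 89.6 elsewhere; whether the muscle cells set the Itga7 value was not tested.

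The common β subunit was lowest in the epithelium. Itgb1 measured 49.7 and 69.6 FPKM in Pc, 34.5 and 45.2 in Epi, 152 and 195 in DC, 157 and 258 in Fb, 137 and 218 in DCSch, 148 and 246 in Sch, 92.7 and 137 in Mc, and 114 and 165 in Neg. Itgb1 supplied 42.5% of the β subunit FPKM in Pc and 37.2% in Epi, against 85.4% to 92.5% in the other fractions. Its share was 34.0% and 51.8% in the Pc libraries and 30.3% and 45.0% in those of Epi. In Epi replicate 1, Itgb4 (35.7%) and Itgb5 (30.9%) exceeded it. In Pc and Epi, Itgb4 (28.3% and 30.6%) and Itgb5 (27.3% and 29.2%) made up most of the rest.

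The collagen receptors were divided among the fractions. Itga1 measured 1.11 and 1.83 FPKM in Pc, 0.708 and 0.806 in Epi, 23.2 and 44.7 in DC, 11.9 and 21.8 in Fb, 6.66 and 15.7 in DCSch, 10.9 and 14.6 in Sch, 1.04 and 1.06 in Mc, and 11.2 and 15.3 in Neg. Itga1, whose receptor also binds laminin and type IV collagen, was lowest in Pc, Epi and Mc, and its DC libraries lay above all others. Itga2 measured 7.78 and 10.8 FPKM in Pc, 5.28 and 4.04 in Epi, 0.579 and 3.03 in DC, 0.406 and 1.15 in Fb, 7.11 and 8.39 in DCSch, 18.2 and 24.2 in Sch, 2.52 and 1.53 in Mc, and 10.6 and 11.7 in Neg. Itga2 was highest in Sch, and its Pc, Epi, DCSch and Neg libraries lay above those of DC, Fb and Mc. Itga11 measured 0.213 and 0.317 FPKM in Pc, 0.210 and 0.166 in Epi, 3.28 and 3.18 in DC, 17.2 and 11.5 in Fb, 4.22 and 2.85 in DCSch, 0.464 and 0.216 in Sch, 1.44 and 0.846 in Mc, and 2.08 and 0.996 in Neg. Itga11, a receptor subunit for fibrillar collagen, was highest in Fb, the fraction with the most Col1a1 (1503 ± 1189 FPKM, SD, n = 2). The remaining collagen receptor subunit, Itga10 of cartilage, ran from 0.422 to 1.42 FPKM over the 16 libraries.

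Receptors for fibronectin and other RGD proteins, so named for the peptide they bind, peaked in different fractions. Itga5 measured 6.76 and 4.89 FPKM in Pc, 5.79 and 3.90 in Epi, 54.9 and 31.0 in DC, 44.4 and 32.8 in Fb, 35.2 and 27.1 in DCSch, 21.4 and 11.7 in Sch, 16.9 and 16.6 in Mc, and 28.5 and 19.4 in Neg. Itga8 measured 0.349 and 0.220 FPKM in Pc, 0.469 and 0.292 in Epi, 18.5 and 26.9 in DC, 19.7 and 32 in Fb, 10.2 and 13.7 in DCSch, 3.57 and 5.15 in Sch, 1.64 and 0.990 in Mc, and 2.83 and 4.59 in Neg. Itga5 (fibronectin) and Itga8 (nephronectin) were both highest in DC and Fb, with overlapping libraries between those 2 fractions. Itgav measured 9.91 and 16.5 FPKM in Pc, 8.25 and 11.6 in Epi, 33.3 and 50.8 in DC, 25.9 and 40.3 in Fb, 29.8 and 49.8 in DCSch, 25.9 and 39.9 in Sch, 11.4 and 18.5 in Mc, and 8.31 and 14.1 in Neg. Itgb3 measured 0.310 and 0.318 FPKM in Pc, 0.402 and 0.282 in Epi, 7.01 and 5.81 in DC, 12.1 and 11.7 in Fb, 6.29 and 7.11 in DCSch, 15.0 and 15.3 in Sch, 1.99 and 1.35 in Mc, and 2.36 and 3.69 in Neg. Itgav is the α subunit that joins β1, β3, β5, β6 and β8, and Itgb3, one of its partners, was highest in Sch. Itgb5 measured 44.4 and 32.2 FPKM in Pc, 35.1 and 27.4 in Epi, 17.5 and 6.94 in DC, 25.1 and 11.5 in Fb, 10.7 and 5.32 in DCSch, 10.5 and 5.32 in Sch, 4.37 and 3.23 in Mc, and 5.88 and 3.22 in Neg. Itgb5, another partner, was highest in Pc and Epi, where all 4 libraries lay above the rest. Itgb6, the epithelial partner that activates latent TGF-β, was at 1.05 to 1.79 FPKM in Pc, Epi and Neg and at most 0.274 elsewhere. Itgb8, which also acts on latent TGF-β, reached 3.22 ± 0.0225 FPKM (SD, n = 2) in Sch and 1.51 ± 0.496 in DC.

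Itga4 and Itga9 encode related α subunits of receptors for VCAM-1, fibronectin and tenascin. Itga4 measured 0.611 and 0.855 FPKM in Pc, 1.22 and 3.30 in Epi, 0.876 and 4.32 in DC, 7.36 and 16.7 in Fb, 15.4 and 32.7 in DCSch, 48.3 and 94.0 in Sch, 39.3 and 71.6 in Mc, and 29.3 and 50.0 in Neg. Itga4 was highest in Sch and Mc, whose libraries overlapped, and its replicate 2 value exceeded replicate 1 in every fraction. Itga9 measured 1.32 and 0.766 FPKM in Pc, 0.518 and 0.966 in Epi, 31.5 and 29.7 in DC, 25.1 and 25.7 in Fb, 19.3 and 23.5 in DCSch, 6.88 and 7.04 in Sch, 15.8 and 20.8 in Mc, and 13.6 and 13.7 in Neg. Itga9 had another order, highest in DC and Fb, with Mc above Sch.

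The subunits of white blood cells were low outside Neg, and Itgb2, Itgal, Itgb7 and Itgam passed the filter for testing only through Neg. Itgb2, their common β subunit, measured 4.12 FPKM in both Neg libraries and at most 0.466 in any other. Itgal measured 3.12 and 2.18 in Neg, and Itgb7 measured 4.86 and 2.43. Itgam, a subunit of macrophages and granulocytes, measured 1.86 and 3.11 in Neg and 0.901 and 1.0 in Epi. The 8 macrophage and leukocyte markers summed to 217 and 187 FPKM in Neg and to 21.4 or less elsewhere. In a bulk fraction, fewer cells of a type and less RNA per cell cannot be told apart.

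**Figure D2:**
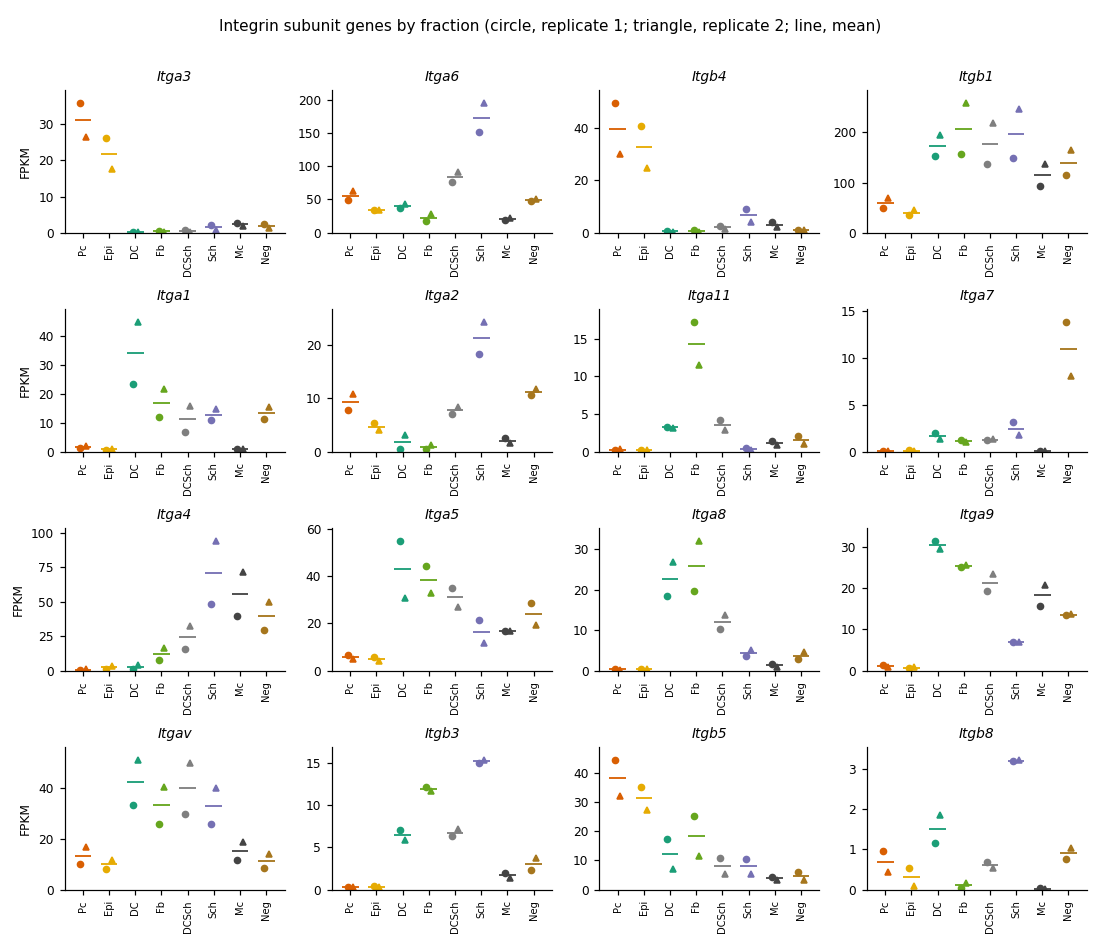
FPKM of 16 integrin subunit genes (vertical axes, linear, starting at 0 and scaled for each gene) in the 8 fractions (horizontal axes), with circles for replicate 1, triangles for replicate 2 and lines for their mean. Itga3 and Itgb4 stand up in Pc and Epi, Itga6 peaks in Sch at 173 FPKM, and Itgb1 is lowest in Pc and Epi.

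The epidermis and its placodes were compared with the dermal cells beneath them, which asks how the 2 sides of the forming basement membrane differ. Against Fb, Epi had Lama3, Lamb3, Lama5, Itga3 and Itgb4 higher, and Lama2, Lama4, Itgb1 and several dermal receptor genes lower. With limma and Benjamini-Hochberg adjustment over all 14171 rows, 22 of the 33 tested genes were called, at an adjusted p under 0.05 with a difference of at least 1 in log2(FPKM + 1). Of all rows 24.5% were called. The 8 called higher compare with 10.5% of all rows and the 14 called lower with 14%. The median difference of the 33 genes was -0.79, against 0.00 over all rows.

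Higher in Epi by limma were Itgb4 (4.30 ± 0.42, SE, adjusted p = 7.62e-06), Lama3 (4.09 ± 0.25, SE, adjusted p = 3.32e-07) and Itga3 (4.03 ± 0.36, SE, adjusted p = 4.11e-06). Lower in Epi were Lama4 (-4.62 ± 0.15, SE, adjusted p = 1.44e-08), Itga8 (-4.25 ± 0.31, SE, adjusted p = 1.0e-06), and Itga9 (-3.93 ± 0.22, SE, adjusted p = 1.80e-07). These values are differences in log2(FPKM + 1), a scale on which the change of a gene near 0 FPKM is understated. Also called higher were Lama5 (3.54), Lamb3 (2.76), Itga2 (1.69) and Itgb6 (1.24). The other genes called lower were Lama2 (-3.93), Itga11 (-3.67), Itga1 (-3.29), Itgb3 (-3.26), Itga5 (-2.76), Itgb1 (-2.32), Itga4 (-1.98), Lamc1 (-1.65), Itgav (-1.62), Lamb1 (-1.14) and Lama1 (-1.03). The calls of Itga4 and Itgav were lost without Fb replicate 2 (-1.44 and -1.31) or without Epi replicate 1 (-1.5 and -1.4), and that of Lama1 without Fb replicate 1 (-0.86) or Epi replicate 2 (-0.85). With the replicate number as a block, Lamb2 was also called lower (-1.13, adjusted p = 0.00755 by limma, against 0.233 without the block).

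Between placode and condensate, Lama3, Lamb3, Lama5, Itga3 and Itgb4 were again higher on the epithelial side, and Lama2 and Lamc3 were lower. Of the 33 genes 23 were called, 9 higher and 14 lower in Pc, against 27.5% of all rows (13.3% higher, 14.3% lower). Their median difference was -0.83, against -0.01 over all rows. By limma, Lama2 was lower in Pc (-6.56 ± 0.24, SE, adjusted p = 1.17e-08), Itga8 (-4.18 ± 0.31, SE, adjusted p = 8.99e-07) and Lamc3 (-4.16 ± 0.26, SE, adjusted p = 2.67e-07). Higher in Pc were Itgb4 (4.71 ± 0.42, SE, adjusted p = 3.27e-06), Itga3 (4.61 ± 0.36, SE, adjusted p = 1.26e-06), and Lama5 (4.08 ± 0.44, SE, adjusted p = 1.58e-05). Also called higher were Lama3 (4.01), Lamb3 (3.23), Itga2 (2.01), Itgb5 (1.68) and Itgb6 (1.16). Those called lower were Itga9 (-3.96), Itga1 (-3.77), Itga5 (-2.64), Itgb3 (-2.49), Lama4 (-2.06), Itga11 (-1.74), Lamc1 (-1.61), Itgav (-1.61), Itgb1 (-1.54), Itga7 (-1.33) and Lama1 (-1.20). Without Pc replicate 1 the calls of Itgav (-1.27), Itgb1 (-1.30) and Itgb5 (1.45) were lost, and without DC replicate 2 those of Itgav (-1.31) and Itgb5 (1.07). With the replicate block Lamb2 was also called lower (-1.53, adjusted p = 0.000924 by limma, against 0.0957).

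Whether the epithelial to dermal difference itself differed between the follicle pair (Pc with DC) and the pair outside it (Epi with Fb) was tested as an interaction. By limma, 4 of the 33 genes were called, where 14.1% of all rows were (8.19% above 0 and 5.89% below). Lama2 had a wider gap in the follicle pair (-2.63 ± 0.34, SE, adjusted p = 0.000301), and so did Lamc3 (-3.37 ± 0.37, SE, adjusted p = 0.000107). Lama4 had a narrower gap (2.56 ± 0.21, SE, adjusted p = 1.75e-05), as did Itga11 (1.92 ± 0.38, SE, adjusted p = 0.00500). With the replicate block Itga4 joined them (1.11, adjusted p = 0.0202, against 0.497). The plot of the 2 differences against each other sets these genes off the diagonal.

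**Figure D3:**
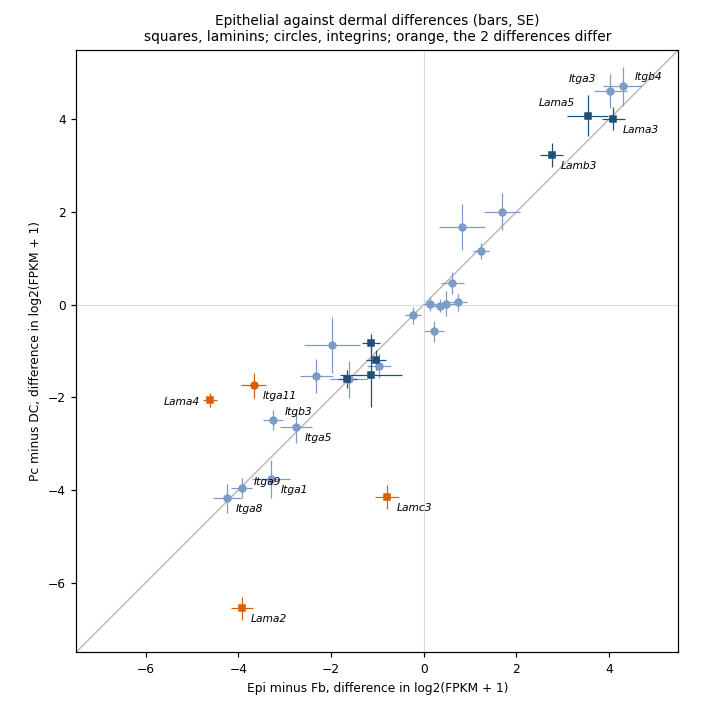
Difference in log2(FPKM + 1) between Pc and DC (vertical axis) against that between Epi and Fb (horizontal axis) for all but 1 of the 33 tested genes, with squares for laminins, circles for integrins, bars for SE and a grey line where the 2 differences are equal. The 4 genes in orange, Lama2, Lamc3, Lama4 and Itga11, are those whose 2 differences differed in the test of the interaction.

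The epithelial side and the dermal side were next compared within themselves. Between Pc and Epi no laminin or integrin gene was called, where 1.52% of all rows were, with 5 of the 33 at an unadjusted p under 0.05 in limma (12 with the replicate block, and again none called). The lowest adjusted p was that of Itgam, at -0.89 ± 0.18 (SE), 0.0240 by limma, a difference under the required size. In the same limma fit the differences of the leading α chains were those of Lama3 (0.33 ± 0.25, SE, adjusted p = 1.0) and Lama5 (0.36 ± 0.44, SE, adjusted p = 1.0). In limma's fit with the replicate block, Itgb1 (0.57, adjusted p = 0.0113), Itga6 (0.68, 0.0148) and Lamc1 (0.44, 0.0216) also passed the p threshold, higher in Pc. Their differences, and that of Itgam (-0.89, adjusted p = 0.00909 in that fit), stayed under the required size. A p that misses the threshold does not show that the levels are equal.

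DC and Fb differed in 3 laminin and 3 integrin genes. In limma's fit 6 of the 33 genes were called, 3 in each direction, against 15.3% of all rows (6.13% higher, 9.20% lower). All 6 Schwann cell markers were also called higher in DC, with sums of 37.4 and 89.0 FPKM there, 6.15 and 12.2 in Fb, and 1667 and 1884 in Sch. Their part in these differences was not tested. Lamc3 was higher in DC (3.38 ± 0.26, SE, adjusted p = 3.78e-06) and Lama2 (2.58 ± 0.24, SE, adjusted p = 1.32e-05). Lama4 was lower (-2.37 ± 0.15, SE, adjusted p = 1.04e-06), Itga4 (-1.95 ± 0.60, SE, adjusted p = 0.0375) and Itga11 (-1.83 ± 0.27, SE, adjusted p = 0.000421). Itgb8 was the remaining gene called higher (1.17). The call of Itga4 was lost without Fb replicate 2 (-1.40), DC replicate 1 (-1.19), Pc replicate 1 or Pc replicate 2 (both -1.95), and that of Itgb8 without DC replicate 2 (0.96). Itga6 (0.84, adjusted p = 0.0245 by limma) and Itgb3 (-0.80, adjusted p = 0.0216) passed the p threshold but not the size. These comparisons with Fb and DC share libraries with those above, so they are not independent of them.

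Schwann cells were next set against the dermal fibroblasts. Against Fb, 10 of the 33 genes were called by limma, 5 in each direction, where 15.4% of all rows were (6.72% higher, 8.68% lower). Itga2 was higher in Sch (3.66 ± 0.39, SE, adjusted p = 2.88e-05), Itga6 (2.92 ± 0.24, SE, adjusted p = 3.08e-06), Itga4 (2.49 ± 0.60, SE, adjusted p = 0.00996) and Itgb4 (2.11 ± 0.42, SE, adjusted p = 0.00278). The fifth was Itgb8 (1.93). Itga11 was lower (-3.50 ± 0.27, SE, adjusted p = 2.24e-06) and Itga8 (-2.30 ± 0.31, SE, adjusted p = 0.000177), followed by Itga9 (-1.73), Lama1 (-1.39) and Itga5 (-1.21). Lama4 (0.79) and Lamb1 (0.89), both highest in Sch, had adjusted p values of 0.00216 and 0.00506 by limma but missed the size. Lamc1, with its highest mean in Sch, was not called (0.54, adjusted p = 0.0824 by limma). Keratinocyte markers summed to 239 FPKM in Sch replicate 1 and 41.2 in replicate 2. Without Sch replicate 1 the Itgb4 difference was 1.60 (adjusted p = 0.0374 by limma), with the lone Sch library assumed to vary like the other fractions, and without replicate 2 it was 2.61 (adjusted p = 0.00249). The part of keratinocyte RNA in it was not tested. The calls of Itga4 and Itga5 were lost without Sch replicate 2 (2.02 and -0.81) or Fb replicate 1 (1.95 and -1.0). With the replicate block Itgb5 (-1.08, adjusted p = 0.00154) and Lamb2 (-1.54, adjusted p = 0.00162) were also called lower by limma.

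Melanocytes arise in part from Schwann cell precursors and settle among keratinocytes, and they were compared with both. Against Sch, Mc had most of its called laminin and integrin genes lower. By limma 12 of 33 were called, 1 higher and 11 lower, where 11.8% of all rows were (4.53% and 7.31%). Lama2 was lower (-3.83 ± 0.24, SE, adjusted p = 5.58e-07), Itga6 (-2.99 ± 0.24, SE, adjusted p = 3.07e-06) and Lamb1 (-2.94 ± 0.19, SE, adjusted p = 7.26e-07). Itga2 was lower (-2.88 ± 0.39, SE, adjusted p = 0.000263), Itga1 (-2.73 ± 0.41, SE, adjusted p = 0.000586) and Itgb3 (-2.61 ± 0.22, SE, adjusted p = 5.35e-06). The others were Lama4 (-2.28), Itgb8 (-2.04), Lamc1 (-1.87), Itga7 (-1.66) and Itga8 (-1.21), with Itga9 the gene called higher (1.27). The call of Itga8 was lost without Sch replicate 2 (-1.0) or Mc replicate 2 (-1.01). With the replicate block Itgav was also called lower (-1.09, adjusted p = 5.99e-06 by limma, against 0.101).

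Against Epi, Mc had the α4 and α9 receptor genes higher and the keratinocyte laminins and receptors lower. By limma 13 of 33 genes were called, 5 higher and 8 lower, where 17.9% of all rows were (9.03% and 8.90%). Itga4 was higher (4.13 ± 0.60, SE, adjusted p = 0.000273), Itga9 (3.47 ± 0.22, SE, adjusted p = 1.20e-06) and Lama4 (3.12 ± 0.15, SE, adjusted p = 4.80e-07). Itgb4 was lower (-3.05 ± 0.42, SE, adjusted p = 0.000176), Lama3 (-3.03 ± 0.25, SE, adjusted p = 5.89e-06) and Itga3 (-2.79 ± 0.36, SE, adjusted p = 0.000115). Also higher were Itga5 (1.62) and Itgb1 (1.49), and also lower were Lama5 (-2.78), Itgb5 (-2.75), Lamb3 (-2.26) and Itgb6 (-1.08). The 4 genes Lama3, Lamb3, Itga3 and Itgb4 measured 0.487 to 3.04 FPKM in Mc, beside keratinocyte markers at 661 and 461 FPKM there. Epi in turn held melanocyte marker RNA, at 165 and 238 FPKM. The part of either in these differences was not tested. The call of Itga5 was lost without Epi replicate 2 (1.39), of Itgb6 without the same library (-0.97), and of Itgb1 without Epi replicate 1 (1.30) or Mc replicate 2 (1.21).

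The mixed Neg fraction was set against Fb. By limma 5 genes were called higher and 6 lower besides the 4 leukocyte subunits that entered the test only through Neg, where 15.5% of all rows were called (7.77% and 7.71%). Those shares also count rows that entered the test through a single fraction. Itga2 was higher in Neg (2.80 ± 0.39, SE, adjusted p = 0.000260), Lama5 (2.51 ± 0.44, SE, adjusted p = 0.00127) and Itga7 (2.42 ± 0.26, SE, adjusted p = 2.88e-05). Itga11 was lower (-2.60 ± 0.27, SE, adjusted p = 2.67e-05), Itga8 (-2.50 ± 0.31, SE, adjusted p = 0.000104) and Itgb5 (-1.75 ± 0.50, SE, adjusted p = 0.0253). The other higher genes were Itga6 (1.12) and Itgb6 (1.07), and the other lower genes Lama1 (-1.74), Itgb3 (-1.70) and Itgav (-1.49). The vessel, muscle and leukocyte markers summed to more in Neg than in Fb, as given above. So did 9 erythroid and platelet markers (32133 and 35081 FPKM in Neg, 59.4 and 218 in Fb) and 6 mast cell markers (1016 and 1214 against 4.19 and 25.2). The part of these cells in the differences was not tested. Calls were lost for Itga6 (0.78) without Fb replicate 1, for Itgb5 without Fb replicate 1 (-1.22) or Neg replicate 2 (-1.39), for Itgb6 without the same libraries (0.95 and 0.91), and for Itgav without Fb replicate 2 (-1.18) or Neg replicate 1 (-1.14). With the replicate block Itga4 (1.69, adjusted p = 8.91e-05) was also called higher and Lamb2 (-1.64, adjusted p = 0.000985) lower by limma.

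By limma, 5 genes that pass the filter through more than 1 fraction were higher in a single fraction than in each of the other 6 (DCSch left aside), where 10.9% of all rows were. The shares of all rows given here also count rows that entered the test through 1 fraction only. Lama2 and Lamc3 were highest in DC (as were 2.19% of all rows), with smallest differences of 1.81 and 3.38 to any other fraction (adjusted p = 0.000866 and 1.49e-05 by limma). Itga11 was highest in Fb (1.83, adjusted p = 0.00341, against 1.47% of all rows) and Itga6 in Sch (1.61, adjusted p = 0.00200, against 1.93%). Itga7 (1.77) was highest in Neg, as were 3.38% of all rows. Itgb2, Itgal and Itgb7 met the rule in Neg too, but they entered the test only through their Neg values, so nothing is read from that. None was highest in Pc, Epi or Mc, where 0.00706%, 0.741% and 1.14% of all rows were.

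Since a trimer or receptor needs RNA for every chain, the lowest chain was taken in each library as the most the RNA would allow. Each trimer or pair was taken alone, so a shared chain such as Itga6, Itgb1, Lamb1 or Lamc1 counts in full for each. The values are therefore not limits that could be reached together. FPKM is per transcript length, so chains can be set side by side, but RNA is not protein. Laminin-311 was limited by Lama3, at 29.6 ± 1.59 FPKM (SD, n = 2) in Pc, 23.3 ± 1.31 in Epi and at most 1.98 ± 0.429 elsewhere (Mc). Laminin-511 was limited by Lama5, at 22.2 ± 10.1 FPKM (SD, n = 2) in Pc, 16.6 ± 5.14 in Epi and 7.96 ± 4.27 in Neg.

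The trimers with α1, α2 and α4 had most RNA in fractions other than Pc and Epi. In DC laminin-211 was limited by Lamb1 at 67.6 ± 10.2 FPKM, and elsewhere by Lama2, at 54.1 ± 11.0 in DCSch, 41.1 ± 3.79 in Sch and 23.8 ± 3.16 in Fb. Laminin-213, the trimer with γ3, stood at 18.4 ± 7.90 in DC, 4.56 ± 1.03 in DCSch and under 1 in the means of the other 6 fractions. Laminin-411 reached 124 ± 17.5 in Sch, 66 ± 2.98 in Fb, 60.2 ± 6.74 in Neg and 16.6 ± 1.09 in DC. Laminin-111 was limited by Lama1 everywhere, at 7.19 ± 0.228 or less.

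Set beside the makers, the laminin receptors gave the following. In Pc and Epi α6β4 was at 39.7 ± 13.5 and 29.6 ± 6.81 FPKM and α3β1 at 31.1 ± 6.64 and 21.8 ± 6.15, the same fractions in which laminin-511 had most RNA. These 2 fractions also had RNA for α6β1, at 56.0 ± 9.60 in Pc and 34.3 ± 0.106 in Epi. In DC, where laminin-211 and laminin-213 were highest, α6β4 and α3β1 were at 0.522 ± 0.189 and 0.295 ± 0.000133, while α6β1 was at 40.1 ± 3.48 and α1β1 at 34.0 ± 15.2. Sch had the most RNA for both laminin-411 and α6β1 (171 ± 33.5), and 6.59 ± 3.60 for α6β4. In Mc the highest trimer was laminin-411 at 15.3 ± 2.63, and the highest laminin receptor was α6β1 at 20.7 ± 1.51. Fb had a similar α6β1 value (22.6 ± 7.78), with libraries that overlapped those of Mc. Neg was the fraction highest for α7β1 (10.9 ± 4.06). The heat map of the lowest chain gives each library.

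**Figure D4:**
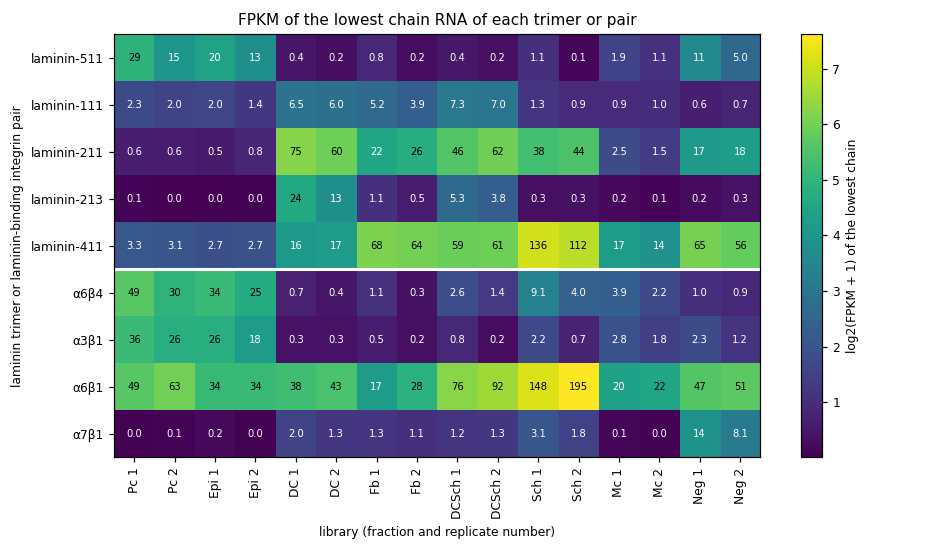
FPKM of the lowest chain RNA (printed numbers; colour is log2(FPKM + 1)) for 5 laminin trimers (above the white line) and 4 laminin-binding integrin pairs (below it), in each of the 16 libraries. Laminin-511, α6β4 and α3β1 are bright in Pc and Epi, laminin-213 in DC, and laminin-411 and α6β1 in Sch.

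DCSch, whose name joins DC and Sch, lay between those 2 in the means of several genes that separate them. Its Lama2 mean of 54.1 FPKM fell between 148 in DC and 41.1 in Sch, its Lamc3 mean of 4.56 between 18.4 and 0.272, and its Itga6 mean of 83.8 between 40.1 and 173. Lama4 was at 60.0 between 16.6 and 156, and Itga4 at 24.0 between 2.60 and 71.2. Others did not. The Itga1 DCSch mean of 11.2 was below both 34.0 in DC and 12.8 in Sch, with DCSch and Sch libraries that overlapped. Lama1 at 7.19 was above both 6.24 in DC and 1.1 in Sch, and Itgb8 at 0.609 was below both 1.51 and 3.22.

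The other genes of the basement membrane were followed by lists of their own. Of 18 tested basement membrane components besides laminins, 5 were higher and 8 lower in Epi than in Fb by limma (10.5% and 14% of all rows), with a median of -0.71 against 0.00 over all rows. The nidogens, which link laminin to type IV collagen, were lower (Nid1 -4.07, Nid2 -4.15), and the Fraser complex was split, with Frem2 (4.13) and Fras1 (3.51) higher and Frem1 (-3.56) lower. Between Pc and DC, 7 were higher and 7 lower (13.3% and 14.3% of all rows), among them Nid1 (-5.64), Fras1 (4.84), Frem2 (4.79) and Col7a1 (-4.22), the collagen of anchoring fibrils. The Col7a1 mean was 155 ± 75.6 FPKM (SD, n = 2) in DC and 7.11 ± 2.98 in Pc. None was called between Pc and Epi (1.52% of all rows). Between DC and Fb, 5 were higher and 5 lower (6.13% and 9.20%), led by Col15a1 (2.48), Col7a1 (2.43), Sparc (-2.09) and Frem1 (1.86). In Sch against Fb, 5 were higher, led by Col18a1 (4.54), and 3 lower, led by Smoc2 (-4.05), where 6.72% and 8.68% of all rows were. Mc had 9 of the 18 lower than Sch, led by Col4a2 (-4.20), and 2 higher, where 7.31% and 4.53% of all rows were.

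The genes of hemidesmosomes and of other laminin receptors did not share 1 pattern. Of 9 tested hemidesmosome partners and other laminin receptors, 4 were higher and 3 lower in Epi than in Fb (10.5% and 14% of all rows), and as many in Pc than in DC (13.3% and 14.3%). Col17a1, a hemidesmosome collagen, was highest in Pc and Epi, higher by 5.05 in Epi and by 5.86 in Pc, and Bcam, a receptor of laminin α5, by 4.37 and 4.97. Sgcd, a sarcoglycan of the dystroglycan complex, was lower (-4.42 in Epi and -3.0 in Pc, differences in log2(FPKM + 1), all called by limma). Dst, the linker of hemidesmosomes and of nerve cytoskeleton, was highest in Sch, where it was higher than in Fb by 3.58. Dag1, the dystroglycan gene, ran from a mean of 40.9 ± 9.99 FPKM in DC to 87.6 ± 8.92 in Sch.

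Of 20 tested ligands of the other integrins, 3 were higher and 13 lower in Epi than in Fb (10.5% and 14% of all rows). In Pc against DC 4 were higher and 12 lower (13.3% and 14.3%). Vcam1, a ligand of α4β1, was highest in Fb at 236 ± 55.9 FPKM, while Itga4 was highest in Sch and Mc. Npnt, the nephronectin ligand of α8β1, was highest in Mc (78.9 ± 1.77), Pc (21.6 ± 1.32) and Epi (15.0 ± 2.70), and at most 6.24 in the other means, while Itga8 was highest in Fb and DC. Egfl6, another α8β1 ligand, was highest in DC (453 ± 1.85), then in DCSch (409 ± 46.8) and Fb (323 ± 62.0). Tnc, a tenascin bound by α9β1, was highest in DC (83.7 ± 4.34), as was Itga9. Between Pc and Epi 1 of the 20 was called by limma, where 1.52% of all rows were: Fn1, fibronectin, higher in Pc (1.12, adjusted p = 0.0243).

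Of 20 tested genes listed as adaptors of integrin adhesion, 1 was higher and 7 were lower in Epi than in Fb (24.5% of all rows were called). In Pc against DC, 2 were higher and 4 lower (27.5%). The kindlins, which activate integrins, split by fraction. Fermt1 (kindlin-1) was at 45.1 ± 4.02 FPKM in Pc, 30.5 ± 1.06 in Epi and at most 2.39 in the other means. Fermt2 (kindlin-2) was at 9.62 ± 1.85 and 11.0 ± 3.55 in Pc and Epi and at 47.4 or more elsewhere, and Fermt3 (kindlin-3, of blood cells) was at 10.2 ± 5.14 in Neg and at most 0.563 elsewhere. Lims2, an adaptor of integrin-linked kinase, was higher in Sch than in Fb by 4.98, and Parvb, one of the parvins, was higher in Mc than in Sch by 2.69 and than in Epi by 3.53 (limma, all called).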

How the data were processed

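The authors deposited 1 table of FPKM values with 23235 rows and a column for each of the 16 libraries. TopHat2 2.0.3, Bowtie2 and Cufflinks 2.1.1 were used with mm10, per the submitters' processing notes. No source used here says if a scaling between libraries was applied. About 6 ng of RNA was amplified to cDNA for each library, per the labels' protocols.

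Differences were taken in log2(FPKM + 1). Rows that reached 1 FPKM in 2 or more libraries (14171) entered a limma fit (version 3.58.1, R 4.3.3) with 1 mean per fraction and a trended, robust spread. Adjustment was by Benjamini-Hochberg over those rows. The code was tested on simulated data. The members and gene lists were chosen with earlier results of these data known. The alternatives were another pseudocount, filter, scaling or set of libraries, a replicate block, and each library left out.

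Same-numbered libraries deviated from their fraction means together in all 28 pairs of fractions (correlation across genes 0.148 to 0.656), so the numbers were read as pairing the samples. The main fit did not use that pairing. The fit with the replicate block did, and the calls that it added are named with each comparison. Members with a mean of 10 FPKM or more in some fraction are given in every library. For each comparison, SE and p are given for up to 6 called members with the largest difference and a mean of 5 FPKM or more on the higher side. Of each other list at most 4 called genes are named by size, and further genes whose levels are printed were chosen after their values were seen. Promoter windows were matched by symbol to RefSeq on GRCm38.p6. Of the 37 members, 1 is included in the counts, medians and sums but is not reported here by name.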

Additional observations from a re-analysis of the deposited data

Results flagged for a closer look

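In 4 genes the difference between the epithelial and the dermal fraction of the follicle pair (Pc minus DC) differed from that of the pair outside it (Epi minus Fb), by the interaction term of limma's fit with Benjamini-Hochberg adjustment over all 14171 rows. These were 4 of the 33 tested genes, where 14.1% of all rows were called, so the count itself does not set the genes apart. The differences between the 2 differences, in log2(FPKM + 1), were 2.56 ± 0.21 (SE) for Lama4, -2.63 ± 0.34 for Lama2, -3.37 ± 0.37 for Lamc3 and 1.92 ± 0.38 for Itga11. Their adjusted p-values were 1.75e-05, 0.000301, 0.000107 and 0.00500. Between the epithelial fractions these genes differed by at most 0.19 (Lama4, Pc minus Epi), while between the dermal fractions they differed by -2.37 (Lama4), 2.58 (Lama2), 3.38 (Lamc3) and -1.83 (Itga11). All 4 calls held with each of the 16 libraries left out in turn.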

How the results depend on the processing

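The counts of called genes stayed within 1.5 times their values, and no called difference reversed, under all the alternatives run, with 1 exception. The count of genes that peak in a single fraction moved from 8 to 5 with a filter of at least 5 FPKM in at least 2 libraries. The 8 include Itgb2, Itgal and Itgb7, which entered the test only through Neg and were set aside in the results. Their largest values (4.12, 3.12 and 4.86 FPKM) lie under the stricter filter, so it left them untested. Leaving out each library in turn gave 21 to 22 called genes for Epi against Fb, 20 to 23 for Pc against DC, 0 for Pc against Epi, 5 to 6 for DC against Fb, 8 to 10 for Sch against Fb, 11 to 12 for Mc against Sch, 12 to 14 for Mc against Epi, 11 to 16 for Neg against Fb and 4 for the interaction. With the replicate block, which uses the pairing by replicate number, these counts were 23, 24, 0, 6, 12, 13, 13, 17 and 5, and no call was lost. Of 105 called differences, 87 kept their call under every alternative that still tested the gene, and 18 lost it at least 1 time. The Neg against Fb counts and the 105 include Itgb2, Itgal, Itgb7 and Itgam where tested. These entered the test only through Neg, so nothing is read from their calls. Some genes were not tested under the filter of at least 5 FPKM, and Itgal and Itgb2 were not without a Neg library. Rescaling every library to the same total moved the median difference of all rows, within 0.02 of 0 as deposited, to -0.20 for Epi against Fb, Neg against Fb, and by smaller amounts elsewhere (-0.12 for Pc against DC, 0.12 for Sch against Fb, -0.15 for Mc against Sch, 0.16 for Mc against Epi). That rescaling ended the calls of Itgb6 (-0.97) in Mc against Epi, and of Itga6 (0.86) and Itgb6 (0.96) in Neg against Fb. Quantile normalization ended those of Lama1 (-0.93) in Epi against Fb, Itga8 (-1.04) in Mc against Sch and Itgb6 (0.89) in Neg against Fb. With only the libraries of the fractions compared in the fit, calls ended in DC against Fb for Itga4 (adjusted p = 0.119 by limma) and Itgb8 (0.0571), in Sch against Fb for Itga5 (0.0919), and in Neg against Fb for Itga6 (0.0936), Itgav (0.0642), Itgb5 (0.0746) and Itgb6 (0.0516). With no filter on low values they ended for Itga4 in Epi against Fb (0.0817) and DC against Fb (0.118), Itgb5 in Pc against DC (0.0654) and Neg against Fb (0.0794), Itga5 in Sch against Fb (0.0768) and Itgav in Neg against Fb (0.0605). With 2 libraries per fraction and no stated depth, some differences lost their call when 1 library was left out, as named in the results. Those fits had no replicate block, so a shift shared by replicate number enters their differences. With the block and all libraries, limma gave Itga4 in DC against Fb an adjusted p of 2.72e-05. That of Itgav in Epi against Fb was 9.47e-08 in the same limma fit.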

Other observations

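Some members moved with the replicate number in every fraction. Replicate 2 was above replicate 1 in all 8 fractions for 5 of the 33 tested genes (Itga1, Itga4, Itgav, Itgb1 and Itgb6), where 19.7% of all rows were. It was below in all 8 for another 8 (Lama5, Lamb1, Lamb2, Lamc1, Itga3, Itga5, Itgb4 and Itgb5), where 12.6% of all rows were.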
